A study of Mus musculus with 5 samples.

Results

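Gene-desert Runx3 peaks were the Runx3-bound regions of a mouse dendritic cell line that lay far from any protein-coding gene. They were chosen by position alone. A peak on an autosome was a member when its summit, the base of highest coverage, was outside every protein-coding gene body and more than 100 kb from the nearest start site (TSS) of a protein-coding transcript, in the mouse build mm9. The rule found 746 members among 12905 autosomal peaks, of 13014 peaks in all. ChIP-seq, the sequencing of immunoprecipitated chromatin, was done on D1, a dendritic cell line of spleen origin. The groups were Runx3 IP (3 libraries; polyclonal rabbit anti-mouse Runx3) and NIS IP (2 libraries; rabbit non-immune serum, the background). All libraries came from this 1 line, with no treatment named in the labels. The peaks were called once on pooled alignments, so the spread between libraries could not be measured, and the dendritic label could not be checked against marker genes because no expression was measured.

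Runx3 is a DNA-binding protein of the RUNX family, which partners with CBFB and both activates and represses genes. In blood cells it is known for its part in cytotoxic T cells, natural killer cells and dendritic cells. RUNX proteins recognise the short core TGTGGT, and less often TGCGGT. Enhancers can lie far from the gene they act on, and a long stretch of sequence with no coding gene, a gene desert, often flanks a developmental or signalling regulator. The nearest gene named beside a peak below is a label of position; no contact between a peak and a gene was measured.

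The sequences around the summits of the strongest members are shown because the core is the feature that the position rule did not use. Strength is the fold enrichment, the height of the Runx3 pileup plus 1 over the NIS background plus 1. Each line gives 101 bases of the plus strand of mm9 with the summit in the middle, named by the gene with the nearest TSS. Capitals mark TGTGGT or TGCGGT, or the same core read from the other strand (ACCACA or ACCGCA).
Mad2l1 peak, chr6:66222371-66222471: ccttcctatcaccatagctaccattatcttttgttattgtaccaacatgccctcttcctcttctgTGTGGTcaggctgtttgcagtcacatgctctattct
1700017N19Rik peak, chr10:100297570-100297670: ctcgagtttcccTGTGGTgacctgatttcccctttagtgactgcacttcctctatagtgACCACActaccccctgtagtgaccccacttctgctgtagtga
Gk2 peak, chr5:98122478-98122578: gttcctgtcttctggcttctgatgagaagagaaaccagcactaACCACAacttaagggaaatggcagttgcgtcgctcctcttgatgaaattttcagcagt
Prex1 peak, chr2:166272289-166272389: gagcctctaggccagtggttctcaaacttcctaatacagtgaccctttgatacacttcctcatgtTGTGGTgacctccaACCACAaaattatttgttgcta
Cdc73 peak, chr1:145313370-145313470: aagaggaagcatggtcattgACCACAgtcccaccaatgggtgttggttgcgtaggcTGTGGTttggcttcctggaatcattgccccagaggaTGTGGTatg
Six3 peak, chr17:85894830-85894930: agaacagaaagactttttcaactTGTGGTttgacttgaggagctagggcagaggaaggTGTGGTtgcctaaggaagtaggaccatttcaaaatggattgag
Foxa2 peak, chr2:147639411-147639511: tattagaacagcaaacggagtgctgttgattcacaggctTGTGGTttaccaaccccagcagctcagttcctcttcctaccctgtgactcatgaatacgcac
These 7 peaks were picked from the 12 strongest, and each held a core within 50 bp of its summit. Those near Rpl34, Cables1 and Fam123a, also with a core, are not printed. The strong members without a core are shown apart below, so the 7 do not give the share with a core. The Cdc73 peak had 3 such cores, and the Six3 peak had 2 on the same strand.

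The second and seventh strongest members had no core within 100 bp of the summit. They are shown for contrast, in the same format.
Slc22a12 peak, chr19:6664499-6664599: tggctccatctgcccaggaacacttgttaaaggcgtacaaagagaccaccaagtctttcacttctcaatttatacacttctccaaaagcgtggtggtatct
Plxna4 peak, chr6:32668035-32668135: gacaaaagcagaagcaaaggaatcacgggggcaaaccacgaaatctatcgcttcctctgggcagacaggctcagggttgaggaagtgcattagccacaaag
Both windows of 101 bases were free of the searched core on either strand. The search allowed no mismatch, so related letters such as the aaccacg of the Plxna4 peak were not counted.

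For gene intervals that held many members, the strongest member of 6 intervals is given as 61 bases around its summit.
Btg1 peak, chr10:95844506-95844566: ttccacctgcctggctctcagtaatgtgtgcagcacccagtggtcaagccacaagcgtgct
Id2 peak, chr12:26115977-26116037: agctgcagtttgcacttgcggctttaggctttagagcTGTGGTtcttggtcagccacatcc
Myc peak, chr15:62562218-62562278: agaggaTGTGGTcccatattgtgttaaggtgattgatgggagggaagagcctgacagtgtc
Uaca interval peak, chr9:60861100-60861160: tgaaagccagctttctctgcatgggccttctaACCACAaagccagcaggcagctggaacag
Tle3 interval peak, chr9:61550559-61550619: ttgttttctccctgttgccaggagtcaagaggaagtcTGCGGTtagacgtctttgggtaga
Ahr interval peak, chr12:36440112-36440172: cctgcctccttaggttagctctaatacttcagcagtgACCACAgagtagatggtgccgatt
The Btg1 peak was again free of the core, and the peak of the Tle3 interval carried the TGCGGT form.

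The strongest member lay 263 kb upstream of Mad2l1, which encodes a protein of the spindle checkpoint. It had 85 Runx3 fragments at the summit, an NIS background of 0.357 in the same scaled units and a fold of 36.4. The next was at 28.9-fold with 65 fragments, 122 kb upstream of Slc22a12, a urate transporter gene, and inside the long noncoding gene 2410152P15Rik. A member 243 kb downstream of the 1700017N19Rik start also had 65 fragments but a higher background, 0.476, and its fold was 25.7. The member 237 kb upstream of Gk2, a glycerol kinase gene, had 57 fragments and a fold of 25.4. These 4 members (0.536%) were the only ones of fold 25 or more, against 86 of all autosomal peaks (0.666%).

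The remaining members among the 12 strongest had folds between 21.1 and 23.7. The member downstream of the start of Prex1, an exchange factor for Rac in leukocytes, had 53 fragments and a fold of 23.7. That near Cdc73, a subunit of the PAF1 complex, had 54 fragments and a fold of 23.4. The member 130 kb upstream of Plxna4, a semaphorin receptor, had 51 fragments and a fold of 22.8. The member between Rpl34 and Lef1, which encodes a partner of beta-catenin, was 164 kb from the Rpl34 TSS with 50 fragments. The member 118 kb upstream of Six3, a regulator of eye and forebrain development, had 49 fragments, and the member beyond Foxa2, a regulator of endoderm, had 47. The members near Cables1 and Fam123a had 50 and 47 fragments. All of the 12 had a background of 0.476 or less.

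As a group the members were of ordinary strength. Their median fold was 8.12 with quartiles of 6.55 and 10.7, against a median of 8.12 with quartiles of 6.50 and 10.5 in the other 12159 autosomal peaks. The lowest and highest folds were 3.56 and 36.4 in the members, against 3.01 and 52.7 in the others. Folds above the autosomal median were seen in 48.5% of members and 47.4% of the others, a difference of 1.11 percentage points that was within counting error (Fisher's exact test, two-sided, adjusted p = 0.572). The median number of fragments at the summit was 19 in both, and the median width was 172 bp in members and 173 bp in the others. The weakest member, with a fold of 3.56, had 17 fragments over an NIS background of 2. It lay 193 kb upstream of Rpl28-ps4. The widest spanned 502 bp, 121 kb upstream of Spef2. Several members shared the highest background, also 2, among them a member 147 kb downstream of the Nrp1 start.

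Gene-desert sequence was sparsely occupied. Members numbered 1.03 per Mb over 721 Mb of gene-desert sequence, against 7.27 other peaks per Mb over 1673 Mb of other autosomal sequence. The ratio was 0.142 (95% interval 0.132 to 0.153, exact binomial). Gene deserts made up 30.1% of the autosomal sequence without gaps and held 5.78% of the peaks. Sequence in which a 38-base tag can be placed uniquely was 83.5% of gene-desert sequence and 86.8% of the rest, and per Mb of such sequence the ratio was 0.148 (0.137 to 0.159).

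Within the intergenic sequence the density decreased with each step of distance. It was 82.8 peaks per Mb within 1 kb of a coding TSS, 7.42 at 1 to 10 kb, 5.54 at 10 to 50 kb and 3.60 at 50 to 100 kb. Among members it was 2.15 at 100 to 150 kb, 1.75 at 150 to 250 kb, 0.655 at 250 to 500 kb, 0.256 at 500 to 1000 kb and 0.0979 beyond, where 6 members were found. The share with a core stayed between 66.9% and 70.2% from 1 kb to 500 kb and was 46.7% within 1 kb. Fold did not follow distance among the members (Spearman's rho = 0.02 over 746 peaks). On the 2 sides of the limit, the 62 members at 100 to 110 kb had a median fold of 8.73 and the 106 intergenic peaks at 90 to 100 kb had 8.38.

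**Figure D1:**
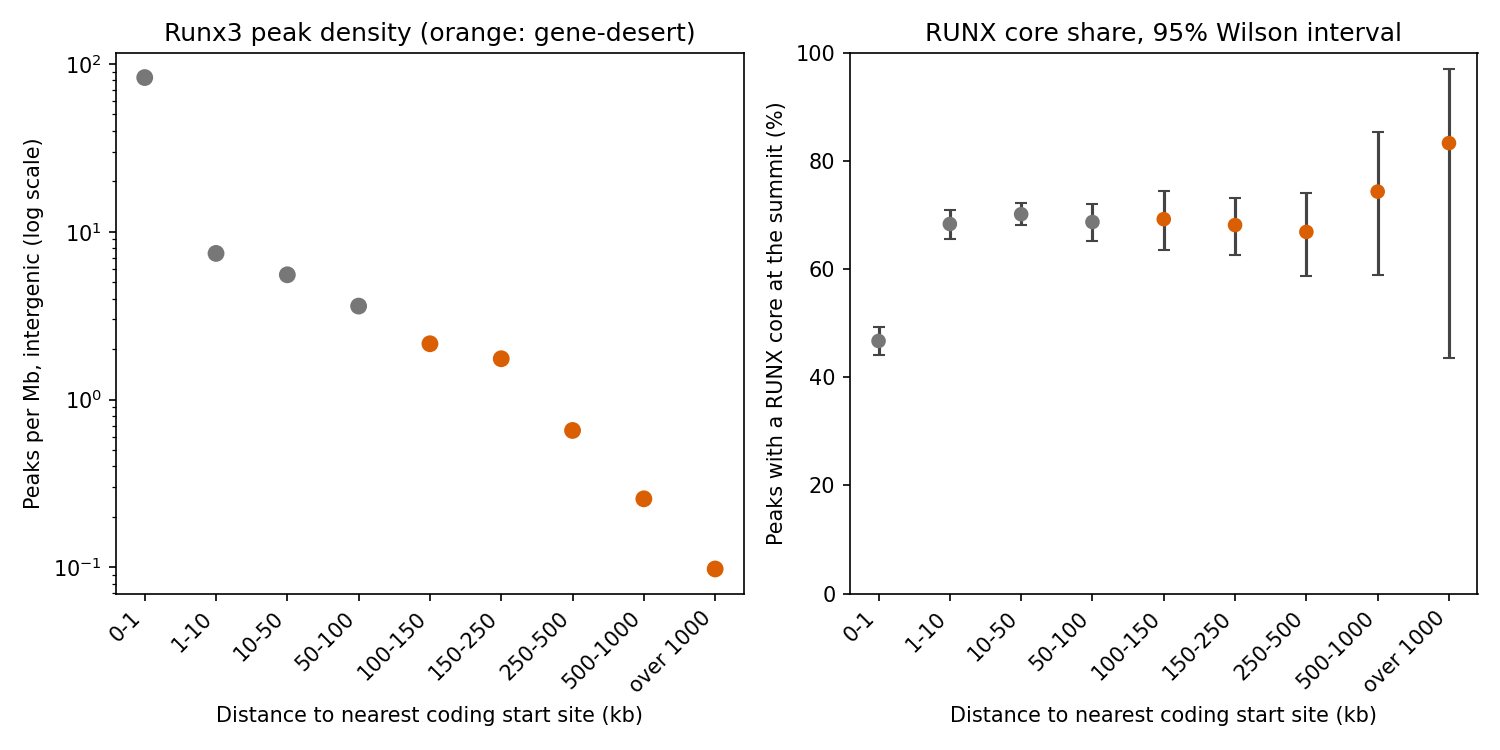
Intergenic Runx3 peaks by distance from the nearest protein-coding TSS (kb, horizontal axes). Left, peaks per Mb on a log scale; right, the percent of peaks with a RUNX core within 100 bp of the summit, with 95% Wilson intervals; orange points are the gene-desert peaks. Density runs down to 0.0979 per Mb while the core share beyond 1 kb stays near 70%, with wide intervals past 500 kb.

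The RUNX core was frequent at the summits of members and rare beside them. Within 100 bp of the summit 513 of 746 members (68.8%, 95% Wilson interval 65.4 to 72.0%) held a core, where the share over all autosomal peaks was 64.1%. Windows of the same 201 bp centred 1 kb upstream and downstream held one in 17.2% and 15.7% of members (exact McNemar test, two-sided, p = 7.86e-82 for the upstream window, the larger of both p-values). Windows of this length laid over all gene-desert sequence held a core in 13.3% of 3586376. Of the members with a core, 373 (72.7%) had it within 25 bp of the summit, and the median distance from the summit to the nearest core was 13.5 bp. TGTGGT was present in 483 members and TGCGGT in 49, with 19 holding both.

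Members with a core had higher folds than those without. The 233 members without a core had a median fold of 7.41, the 365 with 1 core 8.12, the 117 with 2 cores 9.25 and the 31 with 3 or more 8.71, below those with 2. Spearman's rho between fold and the number of cores was 0.15 over the members. In 5 equal bins of the members by fold, the share with a core was 61.3% in the lowest, then 62.4%, 69.8%, 71.8% and 78.5% in the highest, whose 95% interval of 71.3 to 84.4% lay above that of the lowest, 53.3 to 68.8%.

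**Figure D2:**
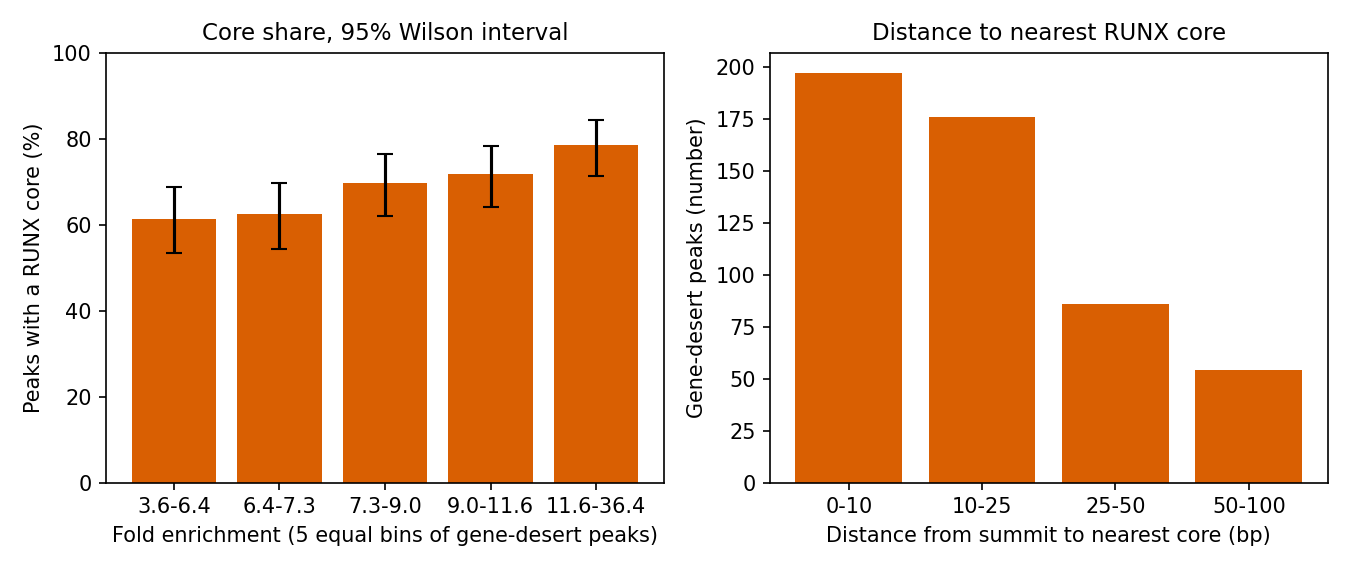
RUNX cores in the gene-desert peaks. Left, the percent of peaks with a core within 100 bp of the summit in 5 equal bins of fold enrichment, bars with 95% Wilson intervals; right, the number of peaks by the distance in bp from the summit to the nearest core. The share runs from 61.3% to 78.5%, and 373 peaks have a core within 25 bp.

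Against other peaks, members differed in the core by a small amount and did not differ by a passing test from peaks of like position. The core share was 68.8% in members and 63.8% in the other autosomal peaks (difference 4.95 points, Fisher's exact test, adjusted p = 0.00948), and the difference did not pass under 5 of 10 alternative settings, at 2.30 to 5.04 points. Against the 2674 intergenic peaks at 10 to 100 kb, of which 69.8% held a core, the difference was -1.02 points (adjusted p = 0.590 by the same exact test). Against the 2811 intronic peaks more than 10 kb from a TSS it was -1.99 points, with 70.8% in the intronic class (exact, adjusted p = 0.343). The TGTGGT form was held by 64.7% of members, against 51.8% of the other peaks, and the TGCGGT form, which contains a CpG, by 6.57% against 15.5% (exact, adjusted p = 2.00e-11 and 4.53e-12, tests added after the data were seen). TGTGGT did not pass against the intergenic peaks, 62.0%, or the intronic peaks, 65.8% (exact, adjusted p = 0.228 and 0.573). TGCGGT was also less frequent in members than in intergenic peaks at 10 to 100 kb, 11.1% (exact, adjusted p = 0.000528), but the difference from intronic peaks, 8.22%, did not pass (adjusted p = 0.228 by the exact test).

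The summit windows of members were poorer in GC and CpG than those of each class. The median GC content was 46.8% in members, 48.3% in intergenic peaks at 10 to 100 kb, 47.8% in intronic peaks and 50.7% in the other autosomal peaks, where gene-desert sequence as a whole had 39.4%. A CpG content above the autosomal median of 1.49 per 100 bp was seen in 19.3% of members, against 31.2% of the intergenic peaks, 25.7% of the intronic peaks and 47.7% of the other peaks (exact, adjusted p = 7.03e-10, 0.00113 and 8.62e-55). A GC content above the autosomal median of 50.2% was likewise seen in 24.7% of members, against 34.1%, 31.3% and 51.1% of these classes (exact, adjusted p = 3.22e-06, 0.00113 and 9.89e-46). Among peaks of fold 10 or more, a smaller set with 216 members, neither GC nor CpG passed against the intergenic and intronic peaks. The GC differences there were -8.07 and -7.89 points (exact, adjusted p = 0.177 and 0.259), against -9.44 and -6.68 in the full list. Those of CpG were -6.33 and -4.44 points (exact, adjusted p = 0.177 and 0.458), against -11.8 and -6.38. The GC difference from the intronic peaks also did not pass at the average NIS background (-5.95 points, exact, adjusted p = 0.0516).

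The NIS background and the spacing of peaks also differed. The recovered background was never below the genome average of 0.315 in any class, so the shares count peaks raised above this lowest value. A background above the average was found at 49.6% of members, against 55.8% of the other peaks (exact, adjusted p = 0.00218) and 56.9% of the intronic peaks (exact, adjusted p = 0.00113). The difference from the intergenic peaks, 53.4%, did not pass (exact, adjusted p = 0.136). With a limit of 200 kb the difference from the intergenic peaks was -8.32 points and passed (exact, adjusted p = 0.0140), and among peaks of fold 10 or more that from the intronic peaks was -5.36 points and did not pass (exact, adjusted p = 0.458). Another summit within 10 kb was found for 34.5% of members, against 44.4% of the other peaks (exact, adjusted p = 2.53e-07) and 42.9% of the intergenic peaks (exact, adjusted p = 9.70e-05). For the intronic peaks the share was 37.3%, a difference of -2.83 points (exact, adjusted p = 0.212). That difference was -8.33 points with a limit of 200 kb (exact, adjusted p = 0.00868) and -14.7 points when another summit was sought within 50 kb (exact, adjusted p = 5.64e-14), and passed in both. Among peaks of fold 10 or more the difference from the intergenic peaks was -6.61 points and did not pass (exact, adjusted p = 0.177). Peaks within 50 kb of a coding TSS, where density was highest, cannot lie within 50 kb of a member. A lower share with a neighbour was therefore set in part by the position rule. Fold and fragments above the autosomal median were less frequent in members than in the intronic peaks, with differences of -4.52 and -4.66 points (exact, adjusted p = 0.0463 for both), and neither passed when 1 peak per 100 kb bin was kept (exact, adjusted p = 0.225 and 0.186), with a limit of 200 kb (0.625 and 0.202), with genes of every type (0.128 and 0.122) or among peaks of fold 10 or more (0.458 and 0.857). Fold also did not pass with −log10 q of 5 or more (exact, adjusted p = 0.564), nor did fragments without chromosome 5 (exact, adjusted p = 0.109). Among peaks of fold 10 or more the split was at the median of those peaks, because all of them exceed the autosomal median fold of 8.12.

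Short motifs of other factors, chosen with earlier results of these data known, were searched on both strands in the same windows. Those of ETS factors such as PU.1 (GAGGAAG) and of AP-1 (TGANTCA), both used in myeloid enhancers, were the most frequent besides the core. The ETS motif was found in 216 members (29.0%), against 21.5% of the other autosomal peaks, with 22.0% over all autosomal peaks (Fisher's exact test, adjusted p = 1.58e-05 over 12 motifs). AP-1 was found in 139 members (18.6%), against 11.8% of the other peaks, with 12.2% over all autosomal peaks (exact, adjusted p = 1.11e-06). In the windows 1 kb upstream and downstream of members the ETS motif stood at 6.30% and 7.10%, and AP-1 at 6.03% and 6.97% (exact McNemar test, adjusted p = 6.83e-27 and 1.86e-10). The ETS motif can overlap the STAT, NF-kB and IRF patterns, which share its GGAA or GAA letters, and the core can overlap its reversed form.

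The ETS difference was 5.20 points among peaks of fold 10 or more and 4.71 points at the average NIS background, and the AP-1 difference was 3.70 points with a limit of 200 kb, where they did not pass. Neither motif passed against the peaks of like position. The ETS share was 25.3% in intergenic peaks at 10 to 100 kb and 25.9% in intronic peaks (exact, adjusted p = 0.121 and 0.223), and the AP-1 share was 17.2% and 15.3% (exact, adjusted p = 0.576 and 0.137). The ETS motif was found in 25.7% of the 513 members with a core and 36.1% of the 233 without (exact, adjusted p = 0.0105, a test added after the data were seen). The AP-1 shares were 17.9% and 20.2% (exact, adjusted p = 0.547). A core, an ETS and an AP-1 motif together were found in 16 members, and 118 members (15.8%) had none of them.

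Among the other motifs, the STAT pattern TTCNNNGAA was at 12.6% in members, against 8.83% in the other peaks (exact, adjusted p = 0.00166), and at 7.24% and 6.97% in the flanks (exact McNemar test, adjusted p = 0.00253). The GATA motif AGATAA was at 10.2%, against 6.46% in the other peaks (exact, adjusted p = 0.000475), but stood at 13.4% and 12.9% in the flanks of the same members. Against the intergenic and intronic peaks of like position, neither STAT (294 of 2674 and 311 of 2811 peaks, exact, adjusted p = 0.411 and 0.365) nor GATA (7.74% and 8.18%, exact, adjusted p = 0.121 and 0.223) passed. With a limit of 200 kb the STAT and GATA differences were 3.83 and 2.81 points and did not pass. The STAT difference also did not pass with 1 peak per 100 kb bin (3.04 points). The GATA difference did not pass with fold of 10 or more (0.285 points), at the average NIS background (2.30) or within 50 bp of the summit (1.31). Motifs rich in CpG or GC were less frequent. The GC box GGGCGG was at 2.28% in members, against 19.5% of the other peaks (exact, adjusted p = 5.14e-44) and 6.25% of the intergenic peaks at 10 to 100 kb (exact, adjusted p = 6.66e-05), and the difference from the intronic peaks, 3.88%, did not pass (exact, adjusted p = 0.137). The E-box CACGTG (1.88% against 4.40%), the CRE element TGACGT (2.82% against 5.21%) and a CTCF-like pattern, AGGGGGC or AGGTGGC (4.83% against 9.09%), were also less frequent than in the other autosomal peaks (exact, adjusted p = 0.000710, 0.00379 and 7.76e-05). None of these 3 passed against the intergenic peaks (exact, adjusted p = 0.121, 0.373 and 0.0549) or the intronic peaks (exact, adjusted p = 0.137, 0.233 and 0.710). Among peaks of fold 10 or more the differences from the other autosomal peaks, -2.61, -0.725 and -3.90 points, did not pass. The CRE difference also did not pass with genes of every type, with 1 peak per 100 kb bin or at the average NIS background. That of the CTCF-like pattern also did not pass with a limit of 200 kb or at the average NIS background.

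The remaining 4 patterns did not pass against the other peaks in the full list with windows of 201 bp. The C/EBP pattern TTGCNNAA was at 10.2% against 8.17% (exact, adjusted p = 0.0737), the IRF pattern GAAANNGAA at 8.85% against 7.14% (exact, adjusted p = 0.0971), and the NF-kB pattern GGANNTTCC at 3.62% against 3.19% (exact, adjusted p = 0.568). The RUNX core with its letters reversed, TGGTGT or TGGCGT, served as a control and was at 17.7% against 17.6% (exact, adjusted p = 0.961), with 9.65% and 13.7% in the flanks of members. The IRF difference passed with a limit of 50 kb (1.88 points, exact, adjusted p = 0.0137) and within 50 bp of the summit (1.99 points, exact, adjusted p = 0.0123). The C/EBP difference passed with −log10 q of 5 or more (2.54 points, exact, adjusted p = 0.0449) and with the starts of every transcript of a coding gene (2.51 points, exact, adjusted p = 0.0279).

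**Figure D3:**
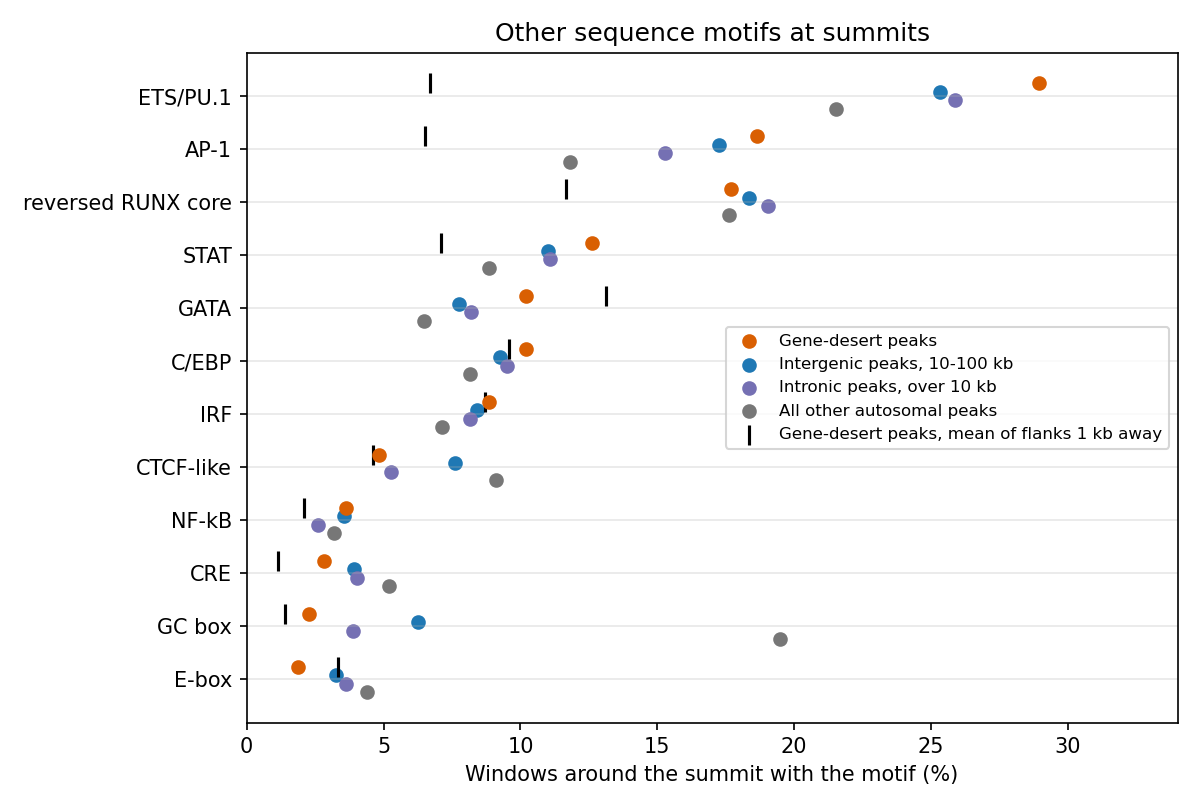
Percent of summit windows that hold each of 12 motifs (horizontal axis) in gene-desert peaks, the peaks of like position and all other autosomal peaks, with black marks for the mean of the windows 1 kb on either side of the gene-desert peaks. ETS and AP-1 motifs stand well right of their flank marks, at 29.0% and 18.6%, and the GC box is at 2.28% in gene-desert peaks, against 19.5% in all other autosomal peaks.

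Members were unevenly spread over the gene deserts. They lay in 342 intervals between neighbouring protein-coding genes, of which 177 held 1 member and 32 held 5 or more. The intervals with 5 or more had 220 members (29.5%). Chained at distances of up to 10 kb, the members formed 602 groups, 497 of them single peaks and 28 of them with 3 or more. The 10 intervals with most members held 95 (12.7%).

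The interval between Eea1, an endosome tether, and Btg1, an inhibitor of proliferation, held 16 members over 393 kb of chromosome 10. Their folds were between 5.87 and 16.3 with a median of 9.57, and 7 of the 16 had a core. The strongest, 235 kb upstream of Btg1, had 36 fragments, and the next, 265 kb downstream of the Eea1 start, had 47 over a background of 0.714 and held 3 cores. The interval between Irf2bp2, a corepressor that binds IRF2, and Tomm20, a mitochondrial import receptor, held 11 members with folds between 6.39 and 13.3, of which 8 had a core and all had another summit within 10 kb.

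Near Id2, which encodes a repressor of E proteins needed for dendritic cell development, 10 members lay between 156 and 360 kb upstream of the TSS. All 10 were on the Id2 side of a gap of 1211 kb to Rnf144a. The strongest had 52 fragments, a background of 0.476 and a fold of 20.7, the next a fold of 12.8, and the other 8 had folds of 6.82 to 9.85. A core was found in 7 of the 10.

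The interval between Myc, a regulator of growth, and Gsdmc held 10 members over 1383 kb. Of these, 5 were nearest to Myc, 258 to 837 kb downstream of its TSS, with folds of 6.55 to 10.4, and 5 were nearest to Gsdmc. Trib1, a pseudokinase that lowers C/EBP alpha in myeloid cells, and Gm7713 bordered 9 members, of which 7 were nearest to Trib1, 105 to 156 kb downstream of its TSS. Their highest fold was 9.85, in a member with 4 cores, and the strongest of the interval, 12.9, was nearest to Gm7713 and had none.

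On chromosome 9, a pair of neighbouring intervals held 8 members each. That between Uaca and Gm10655 had a median fold of 12.9, a highest fold of 20.3 and a core in 2 of the 8. That between Tle3, a Groucho corepressor that RUNX proteins recruit, and Rplp1 had a median fold of 10.5, a highest fold of 18.8 and a core in 6 of the 8. The TSS nearest to 7 of them was that of Rplp1, a ribosomal protein gene, and 1 was 120 kb downstream of the Tle3 start.

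Further intervals bordered Ubl3 and Ahr. Between Ubl3, a ubiquitin-like protein, and Katnal1 there were 8 members with folds of 5.26 to 13.1, all with a background above the genome average. Between Ahr, the aryl hydrocarbon receptor, and Agr3 there were 7 members. Those nearest to Ahr had folds of 5.77 to 9.89, and the pair nearest to Agr3 had folds of 18.8 and 15.9.

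**Figure D4:**
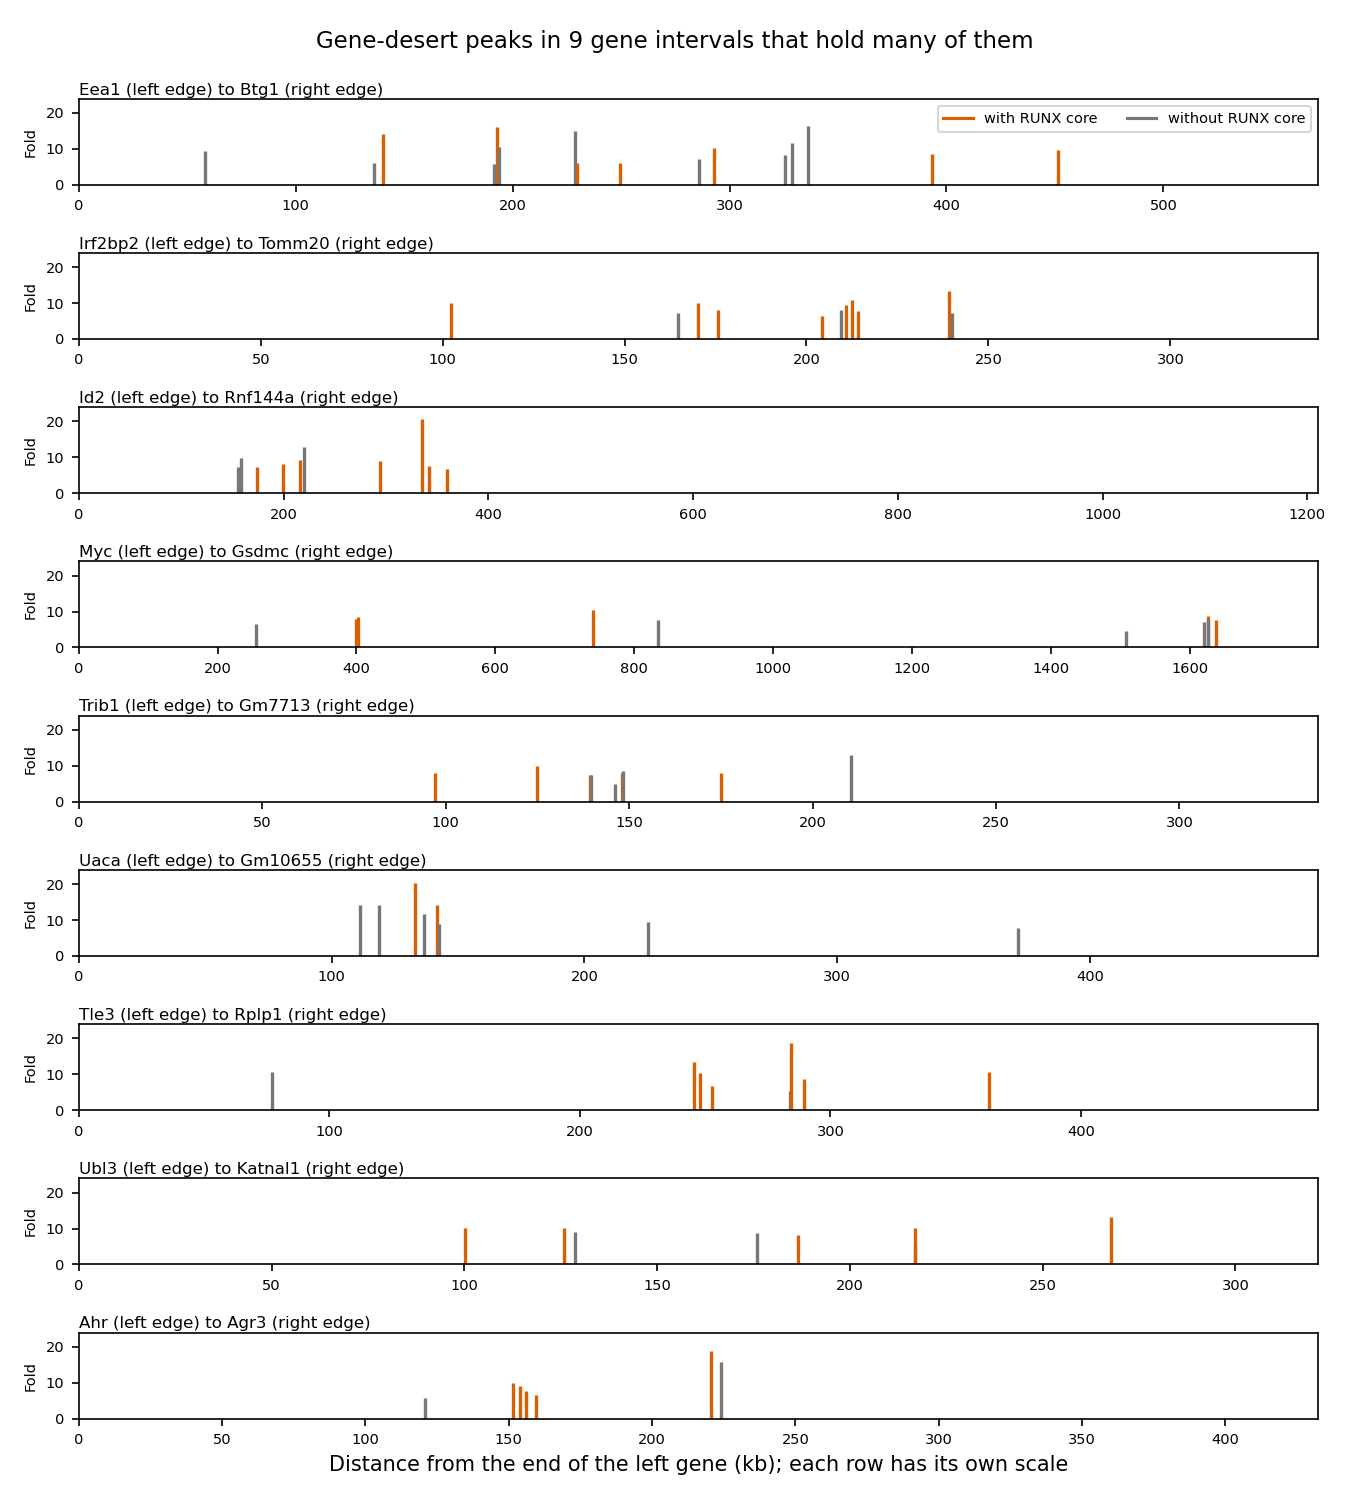
Fold enrichment (vertical axes) of the gene-desert peaks in 9 gene intervals that hold many of them, by distance in kb from the end of the left gene, each row at its own scale. Orange lines are peaks with a RUNX core within 100 bp of the summit and grey lines are peaks without one. The Id2 peaks all lie in the first 360 kb of a gap of 1211 kb, and those of Uaca are mostly grey, with 2 of 8 having a core.

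By nearest TSS the members belonged to 403 genes, 14.0% of the 2872 genes whose TSS is nearest to some gene-desert sequence, and 28 genes had 5 or more. The gene lists were chosen with earlier results of these data known, so their counts were not tested against this share. Lists of developmental and neuronal genes, given below, also stood above it, at 27.3% each, while muscle and liver lists had no such gene. Regulators of dendritic and myeloid cells had 7 of 12 such genes with a member, Id2, Zeb2, Klf4, Cebpb, Bcl6, Bcl11a and Nr4a3, and 23 members in all. The strongest besides that of Id2 was 116 kb from the TSS of Cebpb, a basic leucine zipper factor of myeloid cells, with 34 fragments, 4 cores and a fold of 15.5. Of Nr4a3, an orphan nuclear receptor, there were 4 members with folds of 5.96 to 13.3. The 3 near Klf4 had folds of 5.82 to 8.97, and the pair near Bcl6, a repressor, had folds of 4.66 and 4.77.

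Genes of survival, death and growth control had 7 of 11 with a member and 30 members. Among them were Btg1, Myc, Bcl2, Bcl2l11, Ccnd1 and Foxo3. Ccnd1, which encodes cyclin D1, had 6 members with a highest fold of 15.0, and Bcl2l11, which encodes the death inducer Bim, had 4 with a highest fold of 11.2. Of the RUNX family and its partners, 4 of 6 had a member. Runx1 itself had a pair of members with folds of 9.42 and 15.6, the stronger 381 kb upstream of the TSS and without a core, and Runx1t1, Tle1 and Tle3 had 1 each.

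Other immune lists had few genes beside gene deserts. Of pattern recognition and NF-kB genes 2 of 3 had a member, Nfkbiz with 4 and Tnfaip3, an inhibitor of NF-kB signalling, with a pair. Of interferon and STAT genes both bordering ones did, Irf2 and Irf2bp2. The 1 chemokine or receptor gene was Cxcr4, with a member of fold 5.96 at 116 kb. No cytokine or receptor gene of 5 had one. TGF-beta signalling had 3 of 9, Tgfbr2 with 3 members of up to 11.6-fold, Smad2 and Itgb8, and leukocyte adhesion had 2 of 5, Itga4 and Plxna4.

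Lists of other tissues were counted in the same way. Developmental transcription factors had 6 of 22 with a member and neuronal genes also 6 of 22 (27.3% each), while muscle genes had 0 of 2 and liver genes 0 of 4. The strongest member whose nearest gene was in the developmental list was 349 kb downstream of Sox9, with 29 fragments, a fold of 13.3 and no core, and the strongest for the neuronal list was 653 kb upstream of Pcdh9, a protocadherin, with a fold of 14.2. The developmental list did not hold Six3 or Foxa2, whose members described above were stronger. The length of the gene desert beside each gene was not adjusted for in these counts, and no test was made on them.

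The 5 members farthest from a coding TSS had folds within the range of the rest. The farthest lay 1763 kb upstream of Celf4, with 26 fragments, a fold of 11.7 and 1 core. The next was 1284 kb upstream of Luzp2 with 13 fragments and a fold of 6.19. A pair lay 1089 and 1053 kb upstream of Cdh6, a cadherin gene, with folds of 6.82 and 9.32, and 1 was 1067 kb from the TSS of Grik2, a kainate receptor subunit, with a fold of 12.5.

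Of the 746 members, 717 (96.1%) were outside every annotated gene of any type, 17 were inside long intergenic noncoding RNA genes, 11 inside processed transcripts and 1 in a pseudogene. The share of gene-desert sequence inside such genes was not computed, so no excess or lack can be read from these counts. Within 1 kb of the start of any transcript of a noncoding gene there were 12 members (1.61%, 95% Wilson interval 0.923 to 2.79%), against 0.409% of gene-desert sequence (ratio 3.93, exact binomial test, p = 7.92e-05). For transcript starts of long noncoding genes there were 8, against 0.106% of the sequence (ratio 10.2, exact binomial, p = 1.77e-06). Within 5 kb the ratios were lower, 1.61 for all noncoding starts (exact binomial, p = 0.0289) and 4.26 for long noncoding starts (exact binomial, p = 2.03e-06). The strongest of the 12 within 1 kb was the Prex1 member, 612 bp from the start of 5031425F14Rik, and the next, in the Ubl3 interval, was 169 bp from the start of Gm15407 with a fold of 13.1. A pair 182 and 354 bp from a SNORA4 copy, 527 and 528 kb from Lmo4, had folds of 12.9 and 9.42, and the member 340 bp from a U6 copy near Sim1 had 11.6.

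Within 10 kb of an annotated miRNA gene there were 5 members with folds of 5.96 to 10.3. They were near AC161111.1, AL806517.1 (a pair), Mir713 and Mir29b-1, and the last of these was at 9139 bp with 12 fragments. The share of gene-desert sequence within 10 kb of a miRNA gene was not computed.

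The density of members in gene-desert sequence varied among the 19 autosomes. It was above the share expected from sequence length on chromosomes 10 (1.77 per Mb), 19 (1.84), 9 (1.61) and 13 (1.53), and below it on chromosomes 11 (0.482), 3 (0.516) and 4 (0.658), by exact binomial tests with adjusted p between 0.000113 and 0.0316. Members that lie together are not independent, and with 1 peak per 100 kb bin 3 chromosomes passed.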

How the data were processed

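One peak list was analysed. The submitters' processing notes name CASAVA 1.8, Bowtie 1 and MACS2 2.0.10, with build mm9. Per the file headers, the Runx3 alignment kept 8689867 of 12078978 tags of 38 bp and the NIS alignment 4946605 of 7110481, at 1 tag per position, with fragments of 119 bp and a q cutoff of 0.05. Which libraries were pooled is not given in the sources used here. The deposited pileup is a coverage signal scaled by the authors to the NIS depth. Since 1 Runx3 fragment is worth 0.569, dividing by it gave fragments per summit, which were whole to within 0.00872. The deposited fold enrichment is a ratio of pileup plus 1 to background plus 1, from which the NIS background was recovered. The deposited −log10 q values were used only as a filter and the −log10 p values not at all. Unique alignment places no tags in sequence that recurs exactly over the tag length. Repeats under the members were not examined, and removal of duplicates limits summit height.

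Annotation was GENCODE vM1 on NCBIM37, the same build. Shares were compared by two-sided Fisher's exact tests, summits and flanks by exact McNemar tests and densities by exact binomial tests (SciPy 1.17.1, Python 3.11.15), with Benjamini-Hochberg adjustment within each family (8 measures per class, 12 motifs, 19 chromosomes) at 0.05. All intervals and p-values reflect counting error alone. The functions were tested on simulated data. The members, gene lists and motifs were chosen with earlier results of these data known. Named members were the 12 of highest fold, the 5 farthest, the 5 strongest within 1 kb of a noncoding start, those within 10 kb of a miRNA gene, the strongest of each gene list, the extremes of background, width and fold, and the 10 intervals with most members. Other members of these intervals and lists were named after their values were seen. One of these intervals is not reported here.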

Additional observations from a re-analysis of the deposited data

Results flagged for a closer look

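Peaks on the X chromosome were outside every comparison above. By the same position rule 12 of its 109 peaks lay in gene deserts, with folds of 4.20 to 16.3. They amounted to 0.205 per Mb of X-linked gene-desert sequence, against 1.03 per Mb on the autosomes, a ratio of 0.198 (95% interval 0.102 to 0.348, exact binomial test, p = 2.90e-13). The density of X peaks outside gene deserts was not computed, so the lower value cannot be read as particular to gene deserts. As a share of peaks, gene deserts held 12 of 109 on X and 5.78% on the autosomes.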

How the results depend on the processing

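No paired analysis was possible because the peak list holds no values per library, and for the same reason no replicate could be left out. The lower density in gene deserts (ratio 0.0888 to 0.205), the higher core share at summits than in flanks, the lower CpG content and the rarer neighbour within 10 kb (both against all other autosomal peaks) and the ratio above 1 at noncoding starts (1.61 to 5.20) kept their direction and their call under every alternative run for them. The rarer neighbour was set in part by the position rule.

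The core share against other autosomal peaks did not pass with a 200 kb limit (5.04 points), with genes of every type (4.67), with −log10 q of 5 or more (3.77), with fold of 10 or more (2.30) or at the average NIS background (4.98). With fold of 10 or more, the background difference was -3.06 points and did not pass, 0 of 16 measures passed against the peaks of like position where 8 did in the full list (Fisher's exact test, smaller sets), 3 motifs passed where 8 did, and 3 chromosomes passed where 7 did. With a 200 kb limit, or at the average NIS background, 4 motifs passed. With 1 peak per 100 kb bin 3 chromosomes passed. At the average NIS background the background comparison itself has no value.

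Differences that did not pass in the full list changed sign in places, and none of these passed. Fold above the median against other peaks was -1.81 points at the average NIS background, and fragments were -1.81 there, -1.21 with −log10 q of 5 or more and -1.97 with fold of 10 or more. Width was 0.141 against other peaks with a 50 kb limit, and against intronic peaks 0.752 with that limit, 0.140 with fold of 10 or more, 1.10 with 1 peak per bin and 0.401 without chromosome 5. Against intergenic peaks, fold was 1.07 with a 200 kb limit and 0.919 with −log10 q of 5 or more, and background was 1.72 with fold of 10 or more. The reversed core was -1.75 with genes of every type, -1.38 with fold of 10 or more, -0.309 at the average NIS background and -0.162 without chromosome 5. The NF-kB pattern was -0.0826 with fold of 10 or more and -0.105 within 50 bp of the summit. Fold against intronic peaks, which passed in the full list, was 4.56 points with fold of 10 or more and did not pass. The split there was at the median of the peaks of fold 10 or more, a higher cut than in the full list. The cause of these changes was not tested. The density per uniquely placed Mb and the starts of every transcript of a coding gene were alternatives chosen after the data were seen.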
